A study of Mus musculus with 10 samples.

Results

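The genes described here are 6 receptors of myeloid cells and a pair of the proteins that carry signals from such receptors. Of these, 4 belong to the C-type lectin family (*Clec4a2*, *Clec4n*, *Clec5a* and *Clec7a*), 2 to the family of triggering receptors expressed on myeloid cells (*Trem1* and *Trem2*), and the signaling proteins are the kinase *Syk* and the adaptor *Card9*. They were chosen by name as a family, with earlier results of these data known, and all 8 were measured among the 770 probes tested. Their RNA was counted with the NanoString mouse PanCancer Immune Profiling panel, which hybridizes color-coded probes to RNA without amplification, in YUMMER1.7 melanomas grown under the skin of WT mice (5 tumors) or *Siah2*-/- mice (5 tumors, called KO). YUMMER1.7 is a mouse melanoma line that carries mutant Braf and lacks Cdkn2a, and it was irradiated with ultraviolet light to raise its mutation load.

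The hosts were young male mice on a C57BL/6 background. Siah2, a ubiquitin ligase, was deleted in every cell of the KO hosts, while the injected tumor cells came from 1 line and were the same in both groups. No drug was given to either group. The sample labels put tumor collection at day 11 after injection, whereas the text for the series as a whole and the description of this assay in the paper give day 10, and the series text also names another melanoma line and a knockout of *Rnf5*. Every sample label and the methods name YUMMER1.7 and Siah2, so those groups were used. The panel table has no *Siah2* probe, and the genotype could not be checked from these values. Tumors are named by their label numbers, WT 2, 3, 4, 5 and 6 and KO 1, 2, 3, 5 and 6, and values are given in that order. The labels do not say whether each tumor came from a different mouse, so p-values measure the spread between these tumors.

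C-type lectin receptors read sugars and other patterns on microbes and damaged cells. Dectin-1, the product of *Clec7a*, signals through Syk by its own tail, whereas Dectin-2, MDL-1, TREM-1 and TREM-2 borrow the tails of the adaptors FcRγ or DAP12, and Syk then hands the signal to a complex of Card9, Bcl10 and Malt1 that turns on NF-κB. In tumors these receptors are carried mainly by macrophages, monocytes, neutrophils and dendritic cells.

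*Clec7a* and *Trem1* were the receptors that rose in KO tumors, by 2.52-fold and 2.36-fold (ratios of geometric means, taken after 1 count was added to each value), and *Syk* rose by 1.43-fold. In the limma fit over 770 probes these 3 of 8 genes passed an adjusted p of 0.05, all higher in KO tumors, and none was lower. Over all probes tested, 31.3% passed in the higher direction, 9.74% in the lower and 41% in either. The 3 genes that passed are thus close to the share of the panel as a whole. At an unadjusted p under 0.05 in limma, 4 of 8 genes were higher (*Clec4a2* besides these) and none was lower, against 49.9% of probes in either direction. The groups did not overlap for the same 3 of 8 genes, against 31.6% of probes, 24.5% with KO tumors higher and 7.01% with KO tumors lower. The median of all probes stood at a log2 fold change of 0.24, against 1.33 for *Clec7a*, 1.24 for *Trem1* and 0.52 for *Syk*. By size of increase, *Clec7a* ranked 50 and *Trem1* 52 of 770, while *Syk* ranked 252.

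**Figure D1:**
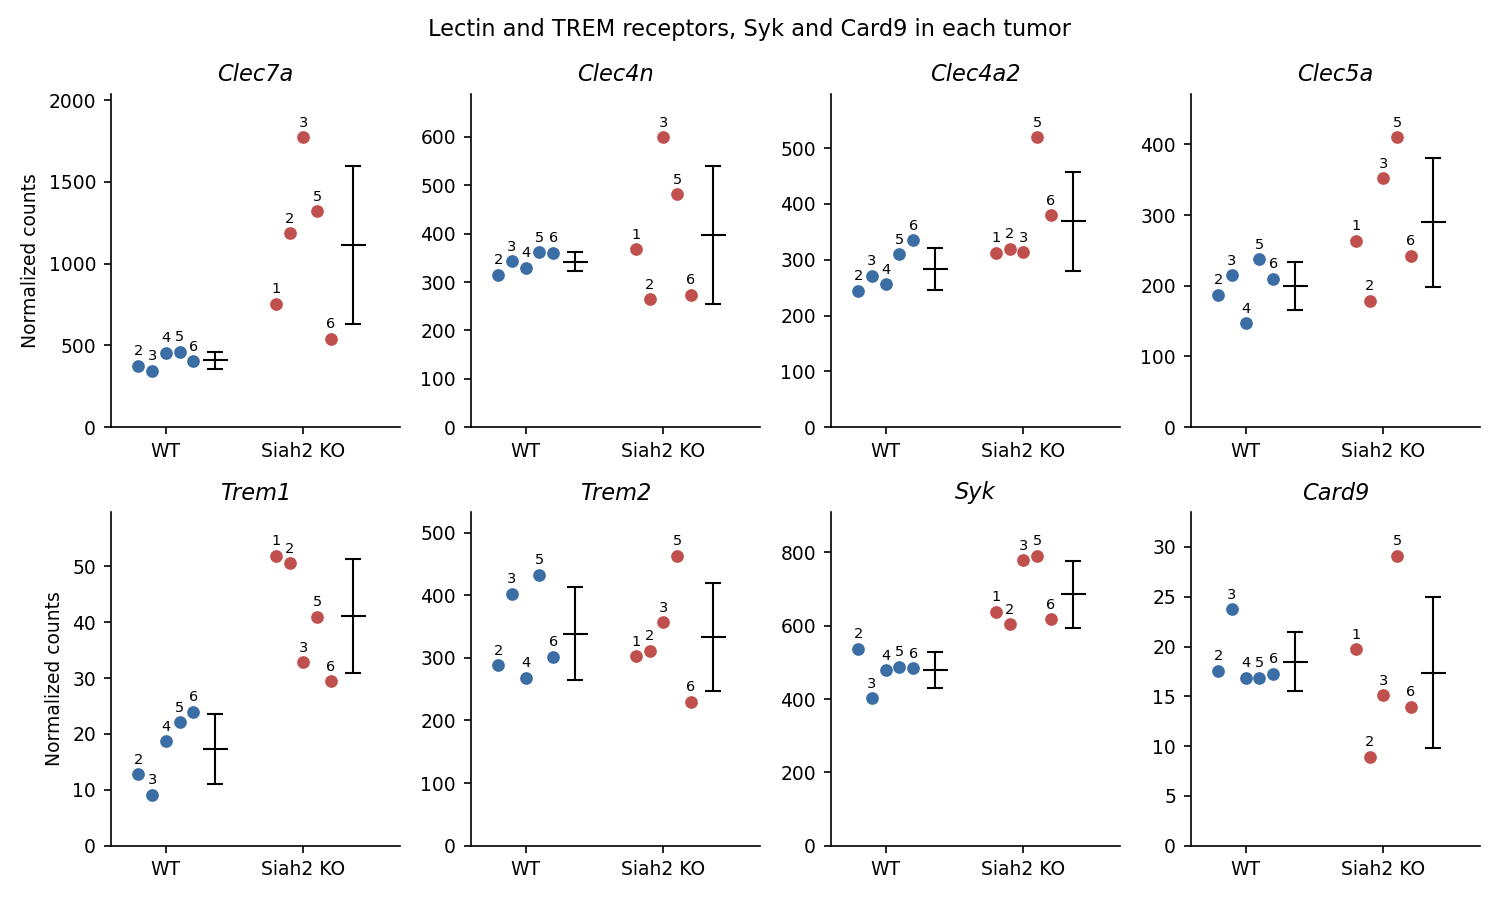
Normalized counts of each gene (vertical axis, from 0, its own scale in each panel) in the WT tumors (blue) and KO tumors (red), numbered as in the labels, with the mean and SD of 5 tumors beside each group. The groups do not overlap for *Clec7a*, *Trem1* and *Syk*, and KO tumor 3 holds the highest *Clec7a* and *Clec4n* values.

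Among the C-type lectin receptors, *Clec7a* encodes Dectin-1, the receptor for fungal β-glucans. Its normalized counts were 377, 346, 456, 462 and 403 in the WT tumors and 754, 1187, 1774, 1319 and 541 in the KO tumors. Every KO tumor lay above every WT tumor, and KO tumors 6 and 1 were the nearest to the WT group. The mean was 409 ± 50.1 in WT and 1115 ± 485 in KO tumors (SD, n = 5 each). The log2 fold change was 1.33 ± 0.29 (SE; 95% interval 0.69 to 1.97), with a limma adjusted p of 0.0046. The exact permutation test over all 252 divisions of the tumors gave its smallest possible two-sided p, 0.0079. Across leaving out each tumor in turn, the log2 fold change of *Clec7a* stayed between 1.14 and 1.56 and passed the threshold in all 10 fits.

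*Clec4n* encodes Dectin-2, which binds fungal mannans and signals through FcRγ. Its counts were 315, 343, 329.7, 361 and 360.4 in WT tumors and 368, 265, 599.8, 481 and 274 in KO tumors. The WT tumors were tightly grouped, whereas KO tumors 3, 5 and 1 lay above all of them and KO tumors 2 and 6 below all of them. The log2 fold change was 0.15 ± 0.22 (95% interval -0.34 to 0.63) with a limma adjusted p of 0.61, and it was negative under median scaling, at -0.12. The mean was 342 ± 19.8 in WT and 398 ± 143 in KO tumors (SD, n = 5 each).

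*Clec4a2* encodes DCIR, a lectin receptor whose tail carries an inhibitory motif. It was measured at 245, 271, 256, 309.9 and 335 counts in WT tumors and at 313, 319, 313, 519.7 and 379.7 in KO tumors. The groups overlapped, since WT tumor 6 exceeded KO tumors 1, 2 and 3, and KO tumor 5 was the highest of all. *Clec4a2* had a log2 fold change of 0.36 ± 0.16 (95% interval 0.0031 to 0.72) and did not pass the limma adjusted p, at 0.097. Its mean was 283 ± 38.0 in WT and 369 ± 88.9 in KO tumors (SD, n = 5 each).

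*Clec5a* encodes MDL-1, a receptor of monocytes and neutrophils that pairs with DAP12. Its WT counts were 187, 215, 147, 237 and 210.05, and its KO counts were 264, 179, 352, 410.4 and 243. KO tumor 2 sat inside the WT range, and the other KO tumors were above it. The log2 fold change was 0.50 ± 0.22 (95% interval -0.0032 to 0.99), with a limma adjusted p of 0.10. KO tumor 2 decided that call, since without it the log2 fold change was 0.65 with a limma adjusted p of 0.025. The mean of *Clec5a* was 199 ± 34.1 in WT and 289.5 ± 91.8 in KO tumors (SD, n = 5 each).

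*Trem1* encodes TREM-1, known for amplifying the inflammatory response of neutrophils and monocytes. It was counted at 12.8, 9.13, 18.7, 22.1 and 24 in WT tumors and at 51.9, 50.5, 32.8, 41.0 and 29.4 in KO tumors. All KO tumors exceeded all WT tumors, with WT tumor 6 and KO tumor 6 nearest to each other. The mean was 17.4 ± 6.27 in WT and 41.1 ± 10.1 in KO tumors (SD, n = 5 each). The log2 fold change was 1.24 ± 0.27 (95% interval 0.64 to 1.84), with a limma adjusted p of 0.0046 and an exact permutation p of 0.0079, and all 10 fits that left out 1 tumor kept the call. *Trem1* was a low signal. Before the scaling factor of each tumor it rested on 9.37 to 24.9 counts in WT and 25.99 to 46.8 in KO tumors, above the highest negative control probe of the same tumor in 10 of 10 tumors (these probes reached 2.37 to 10.7). Counting error is therefore a larger share of this value than of *Clec7a*, and the pseudocount matters: with 10 added in place of 1, the log2 fold change of *Trem1* was 0.91.

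*Trem2* encodes TREM-2, a receptor of macrophages for lipids and apolipoproteins. Its counts were 289, 403, 268, 433 and 302 in WT tumors and 303, 311, 357, 464 and 230.3 in KO tumors. The KO values spanned the whole WT range, with KO tumor 5 above it and KO tumor 6 below it. The log2 fold change was -0.04 ± 0.20 (95% interval -0.48 to 0.41), with a limma adjusted p of 0.90, so changes within that interval were not excluded. The mean was 339 ± 73.8 in WT and 333 ± 86.0 in KO tumors (SD, n = 5 each).

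The 2 TREM genes lie on chromosome 17 in the GRCm38.p6 RefSeq annotation with 4 protein-coding genes between them, and *Clec4a2* and *Clec4n* lie on chromosome 6 with 1 protein-coding gene, *Clec4b2*, between them. Promoter sequence is shown for both TREM genes, neighbors of which 1 rose, and for *Clec7a*, the lectin receptor that rose. Each is the 250 bases before the RefSeq transcription start in GRCm38.p6, 5′ to 3′ on the gene's own strand: chr6:129472786-129473035 on the minus strand for *Clec7a*, chr17:48232489-48232738 on the plus strand for *Trem1* and chr17:48346151-48346400 on the plus strand for *Trem2*. Capitals mark a PU box, the GAGGAA element recognized by the myeloid factor PU.1, or its reverse complement TTCCTC.
Clec7a: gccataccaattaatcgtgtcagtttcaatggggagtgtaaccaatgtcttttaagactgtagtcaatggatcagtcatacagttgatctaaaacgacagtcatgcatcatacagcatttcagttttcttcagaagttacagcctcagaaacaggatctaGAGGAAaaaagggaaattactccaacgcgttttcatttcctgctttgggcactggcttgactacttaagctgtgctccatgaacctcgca
Trem1: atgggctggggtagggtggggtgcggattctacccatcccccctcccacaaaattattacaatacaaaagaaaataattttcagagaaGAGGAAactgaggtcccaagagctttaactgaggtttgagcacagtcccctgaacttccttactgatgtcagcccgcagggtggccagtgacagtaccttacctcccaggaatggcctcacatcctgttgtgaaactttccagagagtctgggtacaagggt
Trem2: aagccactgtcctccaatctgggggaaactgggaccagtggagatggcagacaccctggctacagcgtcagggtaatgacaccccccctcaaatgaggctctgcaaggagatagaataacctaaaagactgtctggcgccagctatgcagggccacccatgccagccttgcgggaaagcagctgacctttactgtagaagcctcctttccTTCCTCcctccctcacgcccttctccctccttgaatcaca
The PU box starts 90 bases before the start in *Clec7a*, 162 in *Trem1* and 40 in *Trem2*, where it reads on the opposite strand. RefSeq promoters were matched for 7 of the 8 genes, all but *Clec4n*. The PU box was present in 4 of these 7 (*Clec5a* has 2, at 81 and 55 bases) and in 23.1% of 27025 promoters of the same length. The AP-1 letters TGANTCA occurred in *Trem2* alone among the 7, against 6.9% of all promoters, and the NF-κB letters GGGNNNNNCC, or GGNNNNNCCC on the other strand, in *Syk* alone, against 45.4%. No match overlapped another. *Trem1* and *Trem2* both hold a PU box while 1 of them passed the test and the other did not.

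Ratios between related receptors within a tumor do not move with the scaling of that tumor, apart from the 1 count added. Such a ratio sets 2 different probes against each other, so only its change between groups has meaning. *Trem1* over *Trem2*, the log2 difference of both receptors, ran from -5.32 to -3.60 in WT and from -3.47 to -2.52 in KO tumors. The groups did not overlap, and the difference was 1.28 ± 0.36 (SE), with an exact permutation p of 0.0079 and 0.012 after Benjamini-Hochberg adjustment over 3 pairs. *Trem1* thus changed by more than *Trem2*. *Clec4n* over *Clec7a*, Dectin-2 over Dectin-1, lay between -0.47 and -0.01 in WT and between -2.16 and -0.98 in KO tumors, a difference of -1.19 ± 0.23 (SE; exact permutation p = 0.0079, adjusted 0.012). For *Clec4n* over *Clec4a2*, the FcRγ-coupled receptor over the inhibitory one, the difference was -0.21 ± 0.25 (SE; exact permutation p = 0.44, adjusted 0.44), and the KO tumors spread from -0.47 to 0.94 around the WT range of 0.10 to 0.37. KO tumor 3 decided this last comparison, since without it the difference was -0.43 with an exact permutation p of 0.024 after adjustment.

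**Figure D2:**
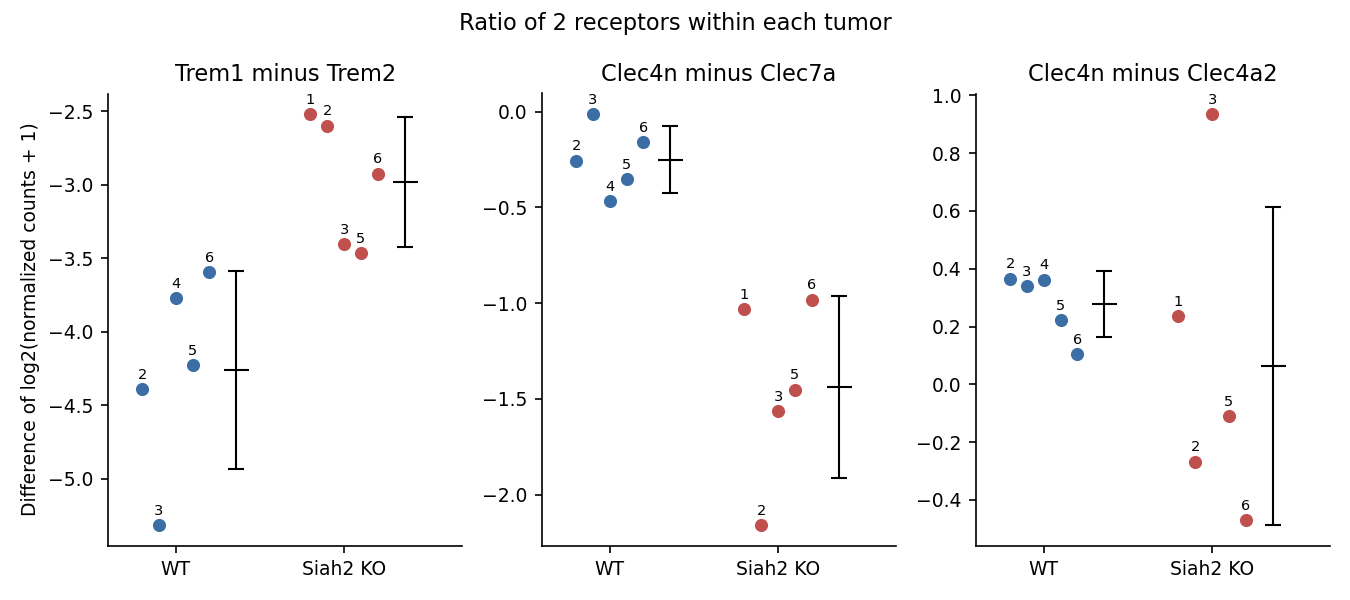
Difference of log2(normalized counts + 1) between 2 receptors in each tumor (vertical axis; the axes do not start at 0), WT in blue and KO in red, numbered as in the labels, with mean and SD of 5 tumors. The groups separate for *Trem1* minus *Trem2* and for *Clec4n* minus *Clec7a*, and overlap for *Clec4n* minus *Clec4a2*.

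*Syk* encodes the kinase shared by the receptors here other than the inhibitory DCIR, and by antigen and Fc receptors. It was measured at 538, 402, 479, 488 and 485 counts in WT tumors and at 639, 604, 779, 792 and 618 in KO tumors. All KO tumors lay above all WT tumors. The mean was 478 ± 48.8 in WT and 686 ± 91.4 in KO tumors (SD, n = 5 each), and the log2 fold change was 0.52 ± 0.12 (95% interval 0.26 to 0.77) with a limma adjusted p of 0.0053 and an exact permutation p of 0.0079. This call depended on the scaling. Before the factor the ranges overlapped, at 369.8 to 561 counts in WT and 378 to 617 in KO tumors. Under median scaling the log2 fold change of *Syk* was 0.25 with a limma adjusted p of 0.078.

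*Card9*, the adaptor downstream of Syk, was a low signal, with 12.8 to 24.4 counts in WT and 5.57 to 19.7 in KO tumors before the factor. Its normalized counts were 17.6, 23.7, 16.9, 16.9 and 17.2 in WT tumors and 19.8, 8.92, 15.1, 29.1 and 14.0 in KO tumors. WT tumor 3 stood above the other 4 WT tumors, which lay together, and the KO tumors fell on both sides. The mean was 18.5 ± 2.97 in WT and 17.4 ± 7.62 in KO tumors (SD, n = 5 each). The log2 fold change was -0.17 ± 0.26 (95% interval -0.74 to 0.41), with a limma adjusted p of 0.62.

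The spread between tumors was wider in the KO group for 7 of the 8 genes, all but *Trem1*. The SD of log2 values went from 0.08 in WT to 0.51 in KO tumors for *Clec4n* and from 0.18 to 0.68 for *Clec7a*, so that the highest KO tumor held 2.26 and 3.28 times the lowest. *Syk* varied little in either group, with SDs of 0.15 and 0.19. A wider KO spread was common on the panel, since 71.1% of the 602 probes with a mean of at least 20 counts had it. No test was made of the difference in spread.

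The genes were also set beside each other by their values over the tumors. Likeness was measured as the root mean square difference of log2 values over the 10 tumors after each gene's mean was taken off, a measure for which the median over all pairs of those 602 probes was 0.45. The measure grows with the size of a gene's own changes and with the counting error of low signals such as *Trem1*. A larger value therefore does not by itself show an unlike pattern. *Clec7a* and *Trem1*, which rose by similar amounts, differed by 0.54, whereas *Clec4a2* and *Syk* differed by 0.25 and *Clec4n* and *Clec5a* by 0.27. *Clec7a* was highest in KO tumor 3 and *Trem1* in KO tumor 1. The probes nearest to *Clec7a* were *Cebpb*, *Hsd11b1* and *Il1rn* (0.28 to 0.30), and those nearest to *Trem1* were *Cxcl1*, *Gzma* and *Pvr* (0.31 to 0.35). *Trem2* ran closest to *Csf1r*, *Jak3* and *Fcgr2b* (0.14 to 0.16), *Syk* to *Cd80*, *Lcp1* and *Lyn* (each 0.13), and *Clec4n* to *Relb*, *Cd200* and *Nfkbia* (0.14 to 0.19). For *Clec4a2* they were *Rel*, *Emr1* and *Ncf4* (0.14 to 0.15), for *Clec5a* *Prdm1*, *Cyfip2* and *Tlr2* (0.14 to 0.15), and for *Card9* *Mcam*, *Vcam1* and *Map4k2* (0.25 to 0.26). All these probes share the same tumors and the same scaling factors.

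Whole tumors were measured, so fewer cells of a type and less RNA per cell cannot be told apart. For the list counts that follow, the shares over all probes were 31.3% higher and 9.74% lower. Leukocyte genes moved with the groups. The summed signal of the 8 leukocyte list genes, 6 of which rose and none of which fell, was 4171 to 5061 counts in WT and 6212 to 9288 in KO tumors, with no overlap. Of 9 macrophage genes, *Cd68* and *Msr1* rose, *Cd163* and *Mrc1* fell and 5 did not pass, and their sum overlapped at 15950 to 19323 counts in WT and 17992 to 26592 in KO tumors. In the monocyte list 3 of 5 genes rose (*Itgam*, *Cd14* and *Fcgr1*), with sums of 14096 to 19686 in WT and 14905 to 29057 in KO tumors. Of the 8 neutrophil genes *Csf3r* rose, by 0.95 on the log2 scale, and 7 did not pass, with sums of 455 to 747 in WT and 325 to 1393 in KO tumors. *Camp*, *Ltf*, *Elane* and *Mpo*, the granule genes, averaged under 20 counts. Of 5 dendritic cell genes *Itgax* rose and 4 did not pass, and the sums overlapped, at 257 to 340.3 counts in WT and 233 to 376 in KO tumors. Lymphocyte lists separated the groups as well. In the T cell list 4 of 6 genes rose, with sums of 751 to 985 counts in WT and 1052 to 1756 in KO tumors, and in the NK cell list 4 of 5, with sums of 842 to 1094 and 1362 to 2095. KO tumor 3, the highest for *Clec7a* and *Clec4n*, also had the highest neutrophil sum, and KO tumor 6, the lowest of its group for *Clec7a*, *Trem1* and *Trem2*, the lowest. This was not particular to neutrophil genes, since KO tumor 6 also had the lowest macrophage, monocyte and T cell sums of the KO group. It did not have the lowest leukocyte, dendritic cell or NK cell sum of that group. The part of these cell types in the results was not tested. Among the scalings that follow, only the macrophage and leukocyte lists served as scales, and none was made from the neutrophil or monocyte list. The macrophage list held genes that moved both ways, so its median need not follow the number of macrophages.

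When each tumor's values were taken relative to the median log2 value of its macrophage list, *Clec7a* remained higher by 1.11 and *Trem1* by 1.02 (limma adjusted p = 0.0054 and 0.022), while *Syk*, at 0.30, did not pass (adjusted p = 0.14 in limma). On that scale 20% of probes passed in the higher direction and 13.2% in the lower. Relative to the leukocyte list, *Clec7a* was higher by 0.92 (limma adjusted p = 0.018), *Trem1* by 0.83 without passing (limma adjusted p = 0.052), and *Syk* differed by 0.10. *Trem2* and *Card9* were lower on the leukocyte scale, by -0.45 and -0.58 (limma adjusted p = 0.021 and 0.045), where 23.6% of probes passed in the lower direction and 13.4% in the higher. Median scaling shifted the median of all probes from 0.24 to -0.01, and relative to it *Clec7a* rose by 1.07 and *Trem1* by 0.99 (limma adjusted p = 0.0055 and 0.014), where 21.2% of probes passed in the higher direction and 19.7% in the lower. Scaled to the positive control probes in place of the reference genes, *Clec7a* rose by 1.17 and *Trem1* by 1.07 (limma adjusted p = 0.011 and 0.044), and *Syk* did not pass, with 7.79% of probes higher and 4.55% lower.

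**Figure D3:**
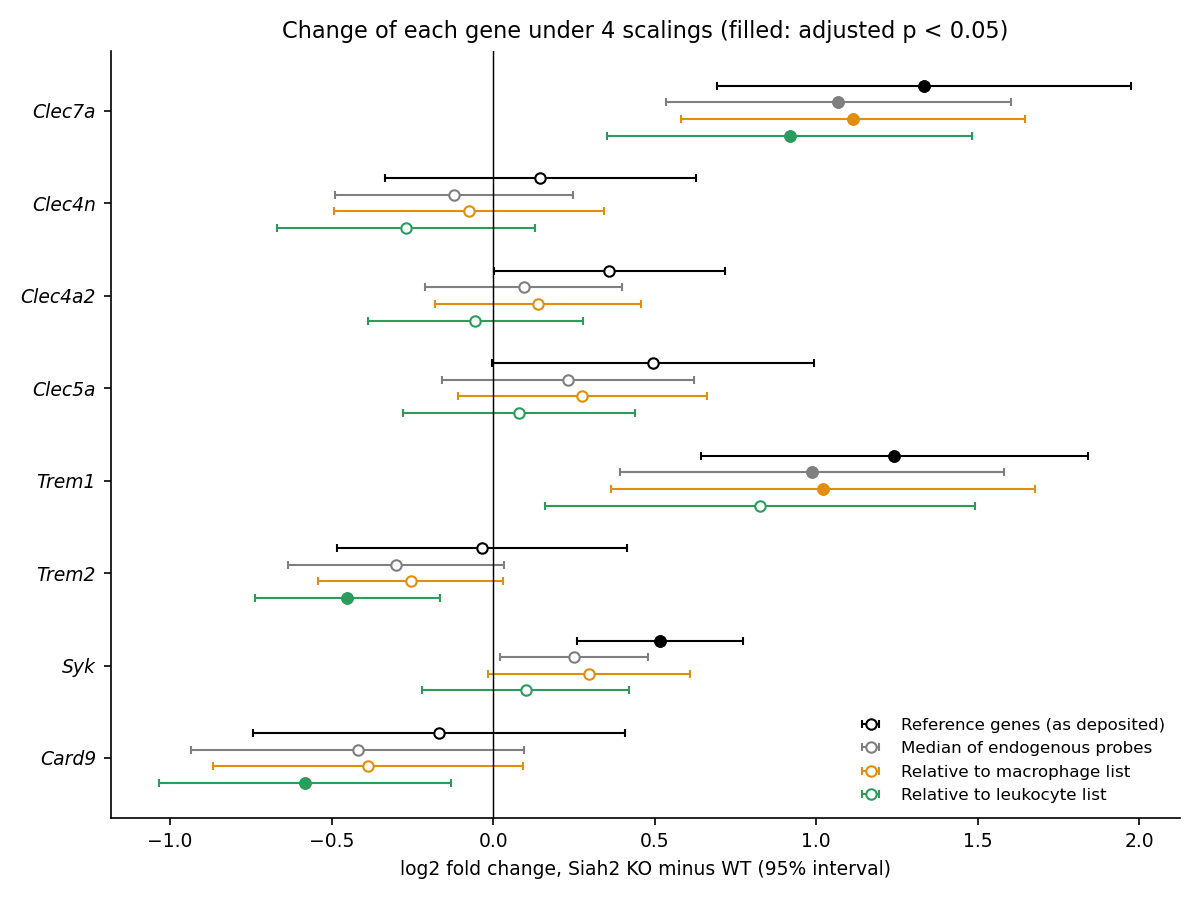
Log2 fold change of each gene, KO minus WT, with 95% intervals, under the deposited reference-gene scaling (black), median scaling (gray), and relative to the macrophage (orange) and leukocyte (green) lists; filled points have a limma adjusted p under 0.05. *Clec7a* passes on all 4 scales, *Trem1* on 3, *Syk* on the deposited scale only of the 4, and *Trem2* and *Card9* are lower on the leukocyte scale.

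The partners of these receptors were looked at next. Of 8 measured adaptors, proximal kinases and phosphatases, 3 rose, none fell and 5 did not pass, with a median log2 fold change of 0.33. Over all probes tested, 31.3% rose and 9.74% fell, so the 3 of 8 that rose are close to the share of the panel. *Tyrobp*, which encodes the adaptor DAP12, and the phosphatase gene *Ptpn6* were not on the panel. *Fcer1g*, which encodes the FcRγ adaptor of Dectin-2, rose from 1313 ± 122 counts in WT to 2374 ± 389 in KO tumors (SD, n = 5 per group), a log2 change of 0.84 (limma adjusted p = 0.00074). *Lyn*, a Src-family kinase that phosphorylates receptor tails, rose by 0.62 (limma adjusted p = 0.0012). The phosphatase gene *Inpp5d*, which encodes SHIP-1, and the adaptor gene *Hcst*, which encodes DAP10, had log2 fold changes of 0.25 and 0.40 and did not pass (limma adjusted p = 0.33 and 0.14). The median of this list under median scaling was 0.07.

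Downstream, 3 of 12 measured genes of the Card9 complex and the NF-κB route rose, 1 fell and 8 did not pass. These counts too are close to the shares of the panel, 31.3% higher and 9.74% lower. The median was 0.16, below that of all probes, and -0.11 under median scaling. *Ikbkg* and *Chuk*, parts of the IκB kinase, rose by 0.35 and 0.25 (limma adjusted p = 0.042 and 0.038), while *Tab1*, a partner of the kinase TAK1, fell by 0.27. *Bcl10*, which binds Card9 directly, had a log2 fold change of 0.10 (limma adjusted p = 0.43). *Malt1*, the other partner in that complex, was not on the panel.

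Genes that this route can induce moved more. Of 11 such genes 6 rose, *Il12b* fell and 4 did not pass, against 31.3% of all probes higher and 9.74% lower. The median log2 fold change of the list was 1.05, and 0.80 under median scaling. *Ptgs2*, the prostaglandin synthase, went from 195 ± 35.9 to 1003 ± 462 counts (SD, n = 5 per group), or 2.28 on the log2 scale (limma adjusted p = 0.00022). *Tnf* and *Il1b* rose by 1.52 and 1.51, *Nlrp3* by 1.10 and *Cxcl1* by 1.05. *Cxcl2* had the largest value of this list, 2.49, from 2.10 ± 0.95 counts in WT to 21.0 ± 18.5 in KO tumors, and is a low signal. *Il12b*, a subunit of IL-12, fell by 0.86 (limma adjusted p = 0.017). These genes answer many receptors, and their relation to the lectin and TREM receptors was not tested.

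A list of 7 further genes with a C-type lectin domain held none that rose, 2 that fell and 5 that did not pass in limma. Over all probes 31.3% rose and 9.74% fell, and 4 of the 7 averaged under 20 counts. The list leaves out the lectin-like receptors of NK cells, of which *Klrb1c*, *Klrd1* and *Klrk1*, counted among the NK cell markers, were higher by 1.17, 0.71 and 0.87 on the log2 scale (limma adjusted p = 0.0040, 0.0025 and 0.0027). *Mrc1*, the mannose receptor, fell from 2310 ± 556 to 1273 ± 411 counts (SD, n = 5 per group), a log2 change of -0.89, and *Colec12*, a scavenger receptor with a lectin domain, from 904 ± 124 to 529 ± 96.8, by 0.78 (limma adjusted p = 0.017 and 0.0022). Among 4 other immunoglobulin-like receptors of myeloid cells *Cd33*, an inhibitory sialic acid receptor, fell by 0.85 (limma adjusted p = 0.00064) and 3 did not pass. All 3 genes for reported ligands of the TREM receptors fell. *Clu*, which encodes clusterin,, went from 632 ± 84.0 to 167 ± 17.1 counts, *Apoe* from 11259 ± 1531 to 7011 ± 1843 (SD, n = 5 each), and *Hmgb1* changed by -0.26 on the log2 scale. *Clu* and *Apoe* changed by -1.91 and -0.71 (limma adjusted p = 3.9e-06 and 0.013). Fibroblast markers fell as well, 4 of 4, with sums of 16494 to 21344 counts in WT and 10332 to 12326 in KO tumors, and their part in the lower ligand values was not tested.

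**Figure D4:**
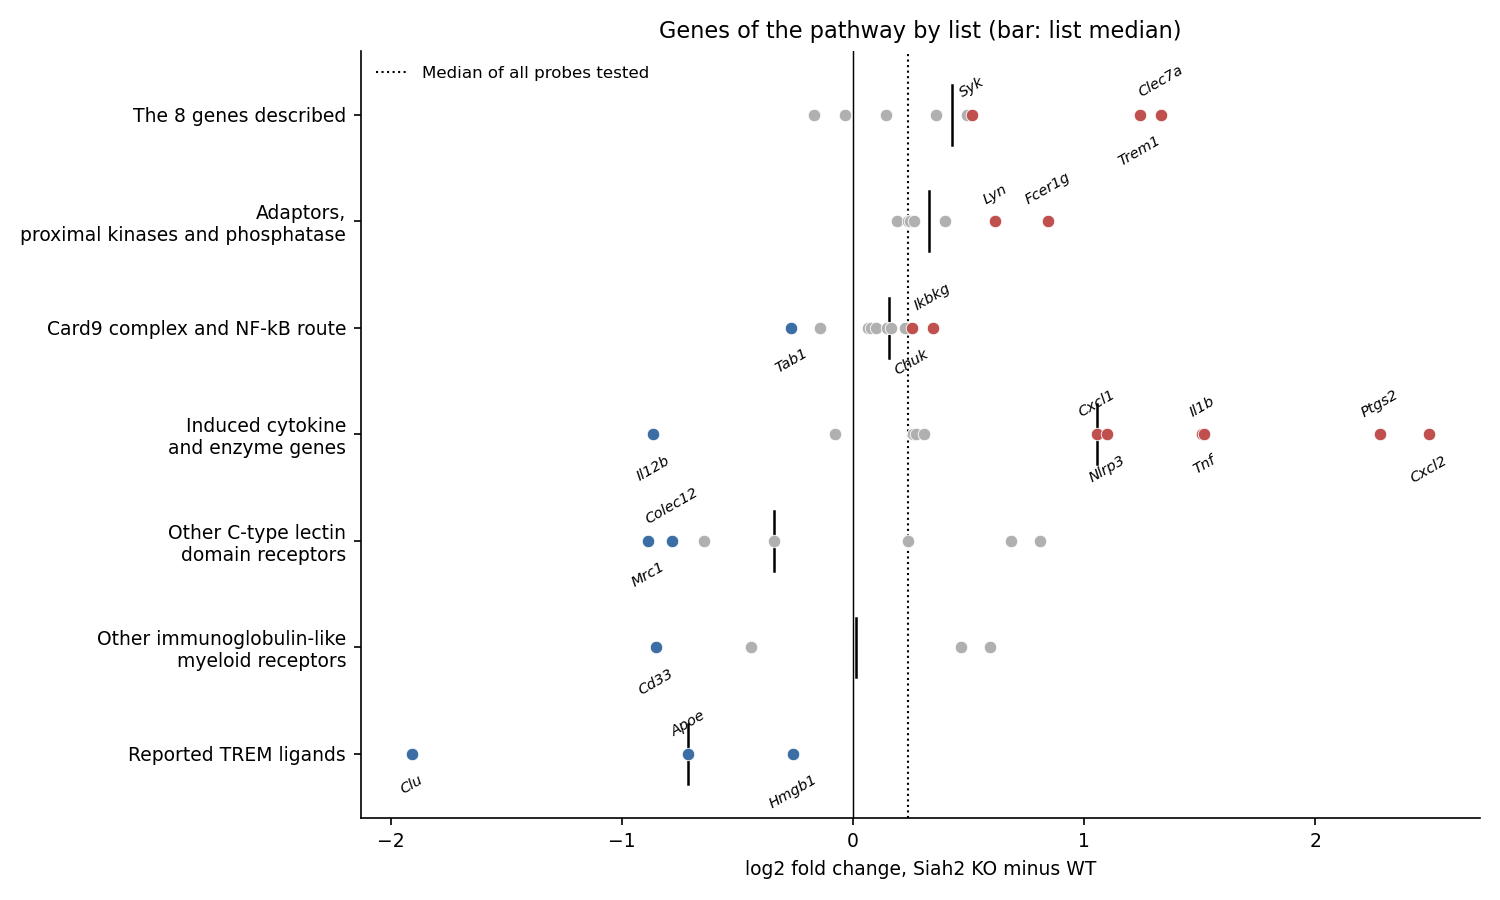
Log2 fold change, KO minus WT, of measured genes (points; 2 list genes are not plotted, though the medians include them) in the 8 genes described and in 6 lists of their partners, targets, relatives and ligands; red points were called higher and blue points lower at a limma adjusted p under 0.05, gray points were not called, short bars are list medians and the dotted line is the median of all 770 probes, 0.24. The induced genes reach the largest increases, and the ligand genes all lie below 0.

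Between tumors of a group the Pearson r over log2 values of all probes was 0.976 to 0.989. The sum over the 770 probes before the factor was 382885 to 581617 counts per tumor, the factor was 0.918 to 1.32 in WT and 1.03 to 1.60 in KO tumors, and 39 to 84 probes per tumor stood at the floor of 1 before the factor. Of melanocytic markers only *S100b*, a gene outside the lists, was looked at, and its values alone cannot give the share of tumor cells. The paper saw no obvious difference in melanoma markers between tumors of the 2 genotypes. *S100b* was low in both groups, at or near the floor in KO tumors, and moved with the groups. It had 6.29 to 26.7 counts in WT and 1.03 to 2.51 in KO tumors (log2 fold change -2.39, limma adjusted p = 0.00055). Its part in the results was not tested.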

How the data were processed

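RNA (100 ng) from each of the 10 tumors was hybridized to the panel by the authors, and counts were handled in nSolver v2.0. What the authors deposited is a normalized count per probe (a signal), for which each tumor had been brought to a common geometric mean of its 20 reference genes. The low values further show a background constant taken from each count, a floor of 1 and a factor per tumor. The constant left counts that are not whole, so no count model was used.

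The 784 rows hold 750 endogenous genes, 20 reference genes, 6 positive and 8 negative controls, and the 770 endogenous and reference probes were tested. Values were taken as log2(value + 1) and compared between WT and Siah2 KO tumors by a two-sided moderated linear model (limma 3.58.1, run under R 4.3.3; functions lmFit and eBayes), with Benjamini-Hochberg adjustment over all 770 probes and calls at 0.05. Single values were also compared by an exact permutation test over 252 divisions, which cannot go below 0.0079, and receptor pairs by the same test on log2 differences. The script was tested on simulated data. Leaving out tumors and 16 other settings were tried. Promoters came from RefSeq (GRCm38.p6), read with Python 3.11.15, and figures were drawn with matplotlib 3.10.9.

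Named genes were the 8 genes, list genes by a fixed rule (counts, the called gene with the largest change in each direction, and genes close to the receptors in function), and the 3 nearest probes to each gene. *S100b* was named outside this rule. A few list genes are counted but not reported by name here. The genes and lists were chosen with earlier results of these data known.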

Additional observations from a re-analysis of the deposited data

Results flagged for a closer look

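*Card9* in WT tumors was singled out because 1 tumor lay far from the rest of its group. WT tumor 3 had a log2 value of 4.63 (23.7 normalized counts), and its gap to the next tumor was 0.876 of the range of the group. This rule was applied to 22 groups of 5 tumors, and chance singles out about 1 in 20 groups. *Card9* is a low signal, and without WT tumor 3 it still did not pass the test.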

How the results depend on the processing

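*Clec7a* stayed higher and passed in all 16 settings and in all 10 fits without 1 tumor, and *Trem1* in 15 of 16 and 10 of 10, the exception being the leukocyte scale. *Syk* lost its call under median scaling (0.25), quantile normalization (0.14), positive-control scaling (0.35), the leukocyte (0.10) and macrophage (0.30) scales and the replicate block (0.54). *Clec4n* turned negative under median scaling (-0.12), quantile normalization (-0.16), positive-control scaling (-0.016), the leukocyte (-0.27) and macrophage (-0.075) scales, *Clec4a2* on the leukocyte scale (-0.056), *Trem2* positive with the 10 steadiest reference genes (0.0043) and *Card9* positive with a floor of 20 (0.057). Without 1 tumor, *Clec4n* ran from -0.021 to 0.27, *Trem2* from -0.16 to 0.088 and *Card9* from -0.37 to 0.031. The cause was not tested.

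On the leukocyte scale 1 of the 8 genes was called higher and 2 lower. Over all probes the count lower went from 75 to 152 (median scaling), 181 (quantile), 35 (positive controls), 182 (leukocyte) and 45 (replicate block), the count higher from 241 to 153 (quantile), 60 (positive controls), 103 (leukocyte) and 154 (macrophage), and the count in either direction from 316 to 95 (positive controls). Without 1 tumor the count higher ran from 203 to 268, and lower from 58 to 76. *Clec4n* over *Clec4a2* ran from -0.43 to -0.080.

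Numbers occur in both groups for 4 tumors each, and the main fit did not take them as pairs. Same-number tumors deviated together with r of 0.035 to 0.35, and 8 of 8 correlated best with their own number. What the numbers stand for was not tested, and the main p-values take no account of them. With the replicate block *Trem1* over *Trem2* was 1.28 and *Clec4n* over *Clec7a* -1.34. The adjusted p was 0.19 for both in an exact sign-change test, which cannot pass with 4 pairs. In the limma fit with that block, 2 of the 8 genes were called, both higher. Of the 770 probes, that fit called 190 higher, 45 lower and 235 in either direction. The low counts of *Trem1* and *Card9* limit their precision.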
